A study of Mus musculus with 15 samples.

Results

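The chains of type IV collagen and laminin that build kidney basement membranes were followed through mouse kidney development. The 10 genes chosen by symbol were Col4a1, Col4a2, Col4a3, Col4a4, Col4a5 and Col4a6, which encode the 6 chains of collagen IV, and Lama1, Lama5, Lamb1 and Lamb2, which encode laminin chains. All 10 had a probe on the array, and 9 of them were among the 9531 genes tested. Kidney RNA of untreated Balb/c mice was read on 15 Illumina bead arrays, with 5 samples at embryonic day 16 (E16d), 5 at postnatal day 1 (PN1d) and 5 at postnatal day 7 (PN7d), and no other genotype or treatment distinguished them. No source used here says if each RNA came from 1 animal or from several pooled, so p-values refer to the spread among these 15 samples, which may in part be technical. Values are the authors' normalized intensities on the log2 scale, on which a difference of 1 is a doubling. Since each probe has its own brightness, levels were compared between ages for 1 probe and never between probes.

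Basement membranes are sheets of matrix in which a network of collagen IV and a network of laminin are laid down beneath epithelia and around vessels. Collagen IV molecules are triple helices. Those of α1 and α2 chains occur in nearly all basement membranes, whereas the α3, α4 and α5 chains assemble together in the mature glomerular basement membrane and in some tubules, and the α5 and α6 chains occur together in Bowman's capsule and the collecting duct. Each laminin is a trimer of an α, a β and a γ chain. As a glomerulus forms, laminin α1 and β1 are replaced by α5 and β2, and collagen α1 and α2 give way to α3, α4 and α5, which podocytes secrete. Loss of the human COL4A3, COL4A4 or COL4A5 genes causes Alport syndrome, and loss of LAMB2 causes Pierson syndrome.

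The question put to the data was whether the chains of the mature glomerulus rose from E16d to PN7d while those of the fetal glomerulus fell. The mature-type chains rose: Col4a3, Col4a4, Col4a5, Lama5 and Lamb2 were all higher at PN7d than at E16d, by 1.5-fold to 4.94-fold. Of the fetal-type chains, Col4a1, Col4a2 and Lamb1 were higher as well, by 1.28-fold to 1.70-fold, and none fell. The probe of Lama1, the fetal laminin α chain, lay near the dimmest signals of the array at each age and could not be followed. The tests came from limma, a linear model fitted to all genes, with Benjamini-Hochberg adjustment and an adjusted p under 0.05 for a call.

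Between E16d and PN1d, 6 of the 9 chains tested were called higher and 0 lower, where 46.3% of all genes were called, 21.4% higher and 24.9% lower. Between E16d and PN7d, all 9 were called higher (6 when the signal of adipocyte genes on each array entered as a covariate, without Col4a2, Col4a6 and Lamb1), against 64.5% of all genes called, 32.3% higher and 32.2% lower. Between PN1d and PN7d, 8 of 9 were called higher (3 with that covariate, Col4a3, Col4a4 and Col4a5) and 0 lower, against 45.4% of all genes called, 24.1% higher and 21.2% lower. The arrays of the 2 ages did not overlap, with the later age higher, for 5 chains from E16d to PN1d (17.6% of all genes, and 19.3% with the later age lower), for 8 from E16d to PN7d (25.3% and 24.8%) and for 6 from PN1d to PN7d (14.4% and 13.4%). The median log2 fold change of the 9 chains was 0.43, 0.76 and 0.37 in these comparisons, beside -0.02, 0.00 and 0.01 for all genes tested. By type, the 5 mature-type chains had a median change of 1.16 from E16d to PN7d and the 3 measured fetal-type chains one of 0.45. These comparisons share arrays, so they are not independent of each other. The adipocyte genes of the covariate were among the dimmest signals at E16d and PN1d and rose at PN7d only. The covariate thus overlaps with age, and a call lost under it does not tell the 2 apart.

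**Figure D1:**
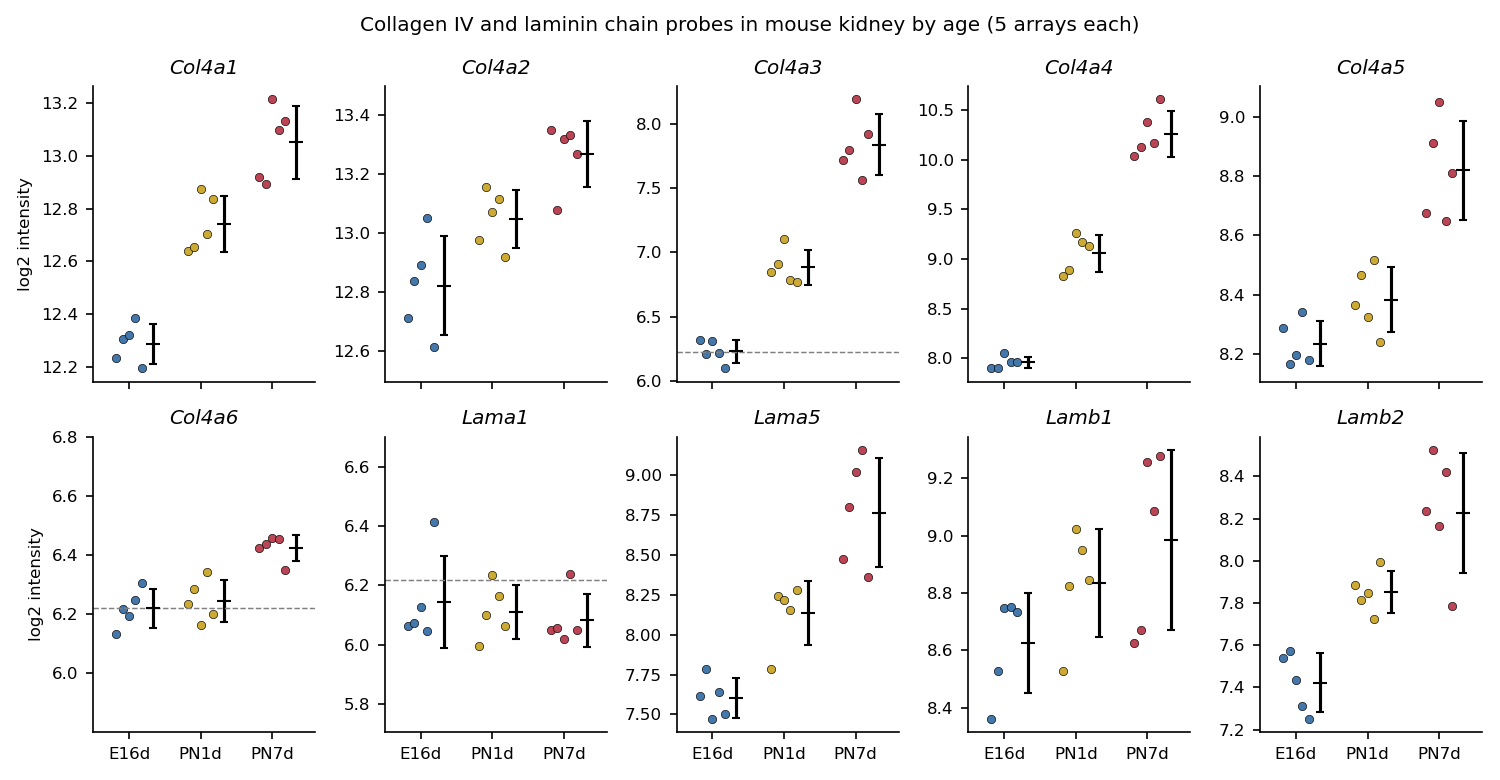
Log2 intensity of the 10 chain probes (vertical axes, each panel on its own scale) at E16d, PN1d and PN7d, with 1 point per array and the mean ± SD of 5 arrays beside them. The dashed line, drawn for dim probes, marks the median of the whole table (6.22). The PN7d points of Col4a3, Col4a4 and Lama5 lie above all E16d and PN1d points, whereas the points of Lama1 lie around or under the dashed line at all 3 ages.

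Whole-series facts bear on these values in a few places. The values show no sign of background subtraction, so changes of dim probes are understated, and the median of all values (6.22 on the log2 scale) served as the floor for testing. Over genes, replicate arrays differed with a median SD of 0.0816 (E16d), 0.0993 (PN1d) and 0.122 (PN7d), and all pairs of arrays of 1 age correlated at 0.99 or above. Of 6 kidney markers on the array, 4 were above the floor at each age, with summed intensities of 5268 to 6022 at E16d and 9621 to 10680 at PN7d. Between these ages Cdh16 and Umod rose and Pax8 and Lhx1 fell. Pax2 and Emx2 lay under the floor at each age and were not summed. Markers of brown fat and other adipocytes were higher in all 5 PN7d arrays, with summed intensities of 8395, 1495, 2985, 5721 and 4809 in arrays 1 to 5 against 656.3 to 711.9 at E16d and 1026 to 1137 at PN1d. This sum includes Lpl, which read 8.69 to 8.87 at E16d, 9.60 to 9.79 at PN1d and 9.78 to 10.42 at PN7d on the log2 scale. Lpl rose by 0.91 from E16d to PN1d, while Ucp1, Cidea, Cox8b and Adipoq stayed under the floor at both ages. Plin1, Fabp4 and Retn, with means under the floor, were not summed and changed by 0.19, 0.005 and 0.002 over the span. In bulk samples, more cells of a type and more RNA per cell cannot be told apart.

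Among the collagen chains, Col4a4 rose the most. Col4a4 encodes the α4 chain and lies on chromosome 1 (GRCm38.p6, chr1:82448419-82587034). Its brighter probe read 7.90, 7.91, 8.05, 7.97 and 7.96 at E16d, 8.83, 8.89, 9.26, 9.17 and 9.13 at PN1d, and 10.03, 10.12, 10.38, 10.16 and 10.60 at PN7d. The 3 ages did not overlap, and each array of a later age lay above all those of an earlier one. The log2 fold change was 1.10 (SE 0.10, limma adjusted p = 2.54e-07) from E16d to PN1d and 1.20 (SE 0.10, adjusted p = 1.32e-07) from PN1d to PN7d. Over the whole span it was 2.30 (SE 0.10, adjusted p = 1.26e-11), a 4.94-fold difference, and 0.388% of all genes tested rose more. The second probe of Col4a4 was dim and read 6.23, 6.34, 6.28, 6.23 and 6.14 at E16d, 6.53, 6.59, 6.51, 6.54 and 6.61 at PN1d, and 7.30, 7.52, 7.56, 7.24 and 7.44 at PN7d. It also separated the 3 ages, but its log2 fold change was smaller, 0.31 (SE 0.056) from E16d to PN1d and 1.17 (SE 0.056) from E16d to PN7d.

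Col4a3, the gene of the α3 chain and the neighbour of Col4a4 (chr1:82586921-82722059), rose next. Its probe read 6.31, 6.20, 6.31, 6.22 and 6.10 at E16d, 6.85, 6.91, 7.11, 6.79 and 6.77 at PN1d, and 7.72, 7.80, 8.20, 7.57 and 7.92 at PN7d. At E16d it stood at the floor, with 2 of 5 arrays above the median of all values, and it was above that floor on all later arrays. The ages did not overlap. It changed, on the log2 scale, by 0.66 (SE 0.096, adjusted p = 3.28e-05) at PN1d against E16d, 0.96 (SE 0.096, adjusted p = 9.24e-07) at PN7d against PN1d and 1.61 (SE 0.096, adjusted p = 4.21e-10) at PN7d against E16d. The 3.06-fold difference over the span is thus set against a group near the floor. With a background correction of the values (normexp), the change over the span was 2.30 for Col4a3 and 2.48 for Col4a4. The order of these 2 chains depends on the probe as well, since the dim probe of Col4a4 changed less than the Col4a3 probe.

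Col4a5 encodes the α5 chain, which joins α3 and α4 in the glomerulus and α6 in Bowman's capsule. Col4a5 (chrX:141475370-141689236) and Col4a6 (chrX:141165403-141474095) stand head to head on the X chromosome with 1274 bases between their annotated starts. The Col4a5 probe read 8.29, 8.17, 8.19, 8.34 and 8.18 at E16d, 8.36, 8.47, 8.33, 8.52 and 8.24 at PN1d, and 8.68, 8.91, 9.05, 8.65 and 8.81 at PN7d. The E16d and PN1d arrays overlapped, while all PN7d arrays lay above both. From E16d to PN1d the log2 fold change of 0.15 (SE 0.075) did not pass the test (limma adjusted p = 0.121). It was 0.44 (adjusted p = 0.000203) from PN1d to PN7d and 0.59 (adjusted p = 3.63e-06) over the span. Of the single steps only the later one passed for Col4a5, and the difference between the steps was not tested.

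Col4a6, the gene of the α6 chain, was near the floor throughout. Its brighter probe read 6.13, 6.22, 6.19, 6.25 and 6.31 at E16d, 6.24, 6.29, 6.16, 6.34 and 6.20 at PN1d, and 6.42, 6.44, 6.46, 6.45 and 6.35 at PN7d. The E16d and PN1d arrays intermingled around the median of all values, and all 5 PN7d arrays were slightly above them. The log2 fold change over the span was 0.21 (SE 0.047, limma adjusted p = 0.00114) and from PN1d to PN7d 0.18 (adjusted p = 0.0056), while that from E16d to PN1d was 0.03 (adjusted p = 0.685). The other Col4a6 probe was at or under 6.001 on all 15 arrays and changed by 0.01 (SE 0.041) over the span, so the Col4a6 increase rested on 1 probe. With the adipocyte signal as a covariate the change over the span was 0.23 and no longer passed the test (adjusted p = 0.106).

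The stretches of genome just before the annotated starts of Col4a5 and Col4a6 are shown because these 2 genes leave the same short interval in opposite directions. Sequences are from RefSeq (GRCm38.p6), run 5′ to 3′ on the strand of the gene, and cover only bases outside annotated genes. That of Col4a5 is chrX:141475169-141475369 on the plus strand and that of Col4a6 is chrX:141474096-141474326 on the minus strand. Capitals mark a CCAAT box (CCAAT on either strand), and none was found in the Col4a6 stretch.
Col4a5: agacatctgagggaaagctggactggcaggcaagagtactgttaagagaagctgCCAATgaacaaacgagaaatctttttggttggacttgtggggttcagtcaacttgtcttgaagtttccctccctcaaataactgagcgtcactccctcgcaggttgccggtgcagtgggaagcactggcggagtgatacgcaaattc
Col4a6: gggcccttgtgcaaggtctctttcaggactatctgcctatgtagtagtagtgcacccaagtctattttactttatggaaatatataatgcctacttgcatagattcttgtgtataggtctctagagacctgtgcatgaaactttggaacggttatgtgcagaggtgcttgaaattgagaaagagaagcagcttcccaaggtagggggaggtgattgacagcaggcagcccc

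Windows of 300 bases around a start site were supplied for 8 of the 10 genes, all except Col4a3 and Lama1, and 4 motifs were searched on both strands. The CCAAT box was found in those of Col4a1, Col4a2, Col4a5 and Lamb1, that is in 4 of 8, against 37.4% of 32807 such windows. The GC box GGGCGG was found in those of Col4a1, Col4a2, Col4a5, Col4a6, Lama5 and Lamb1, in 6 of 8, against 35.6% of all windows. The TATA box TATAAA and the homeodomain core TAATTA were in 0 of the 8 windows, against 13.6% and 5.3% of all. These counts describe letters in short windows and do not place a factor there. The windows of Col4a1 and Col4a2 share bases, so their matches are not independent.

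Col4a1 and Col4a2 encode the ubiquitous α1 and α2 chains. They too are head to head, on chromosome 8 (chr8:11198423-11312889 and chr8:11312805-11449287), with annotated spans that overlap by 85 bases. Col4a1 read 12.23, 12.31, 12.32, 12.38 and 12.19 at E16d, 12.64, 12.65, 12.87, 12.70 and 12.84 at PN1d, and 12.92, 12.90, 13.22, 13.10 and 13.13 at PN7d. The 3 ages did not overlap. Its log2 fold change was 0.45 (SE 0.069, limma adjusted p = 4.68e-05) from E16d to PN1d, 0.31 (adjusted p = 0.00165) from PN1d to PN7d and 0.76 (adjusted p = 5.98e-08) over the span, a 1.70-fold difference.

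Col4a2, whose product forms 1 molecule with the α1 chain, had smaller fold changes than Col4a1, a difference that was not tested. Its probe read 12.71, 12.84, 12.89, 13.05 and 12.61 at E16d, 12.97, 13.16, 13.07, 13.11 and 12.92 at PN1d, and 13.35, 13.08, 13.32, 13.33 and 13.27 at PN7d. Each pair of neighbouring ages overlapped, with the highest E16d array among the PN1d values, while E16d and PN7d did not. Its log2 fold change was 0.23 (SE 0.078, limma adjusted p = 0.0254) from E16d to PN1d, 0.22 (adjusted p = 0.0292) from PN1d to PN7d and 0.45 (adjusted p = 9.08e-05) over the span. The calls of both single steps were lost on leaving out 1 array: the first without array 1 or 5 of E16d or array 2 or 4 of PN1d, and the second without array 1 or 5 of PN1d or array 1, 3 or 4 of PN7d. With the adipocyte signal as a covariate, the change over the span was 0.20 (adjusted p = 0.365), against 0.71 (adjusted p = 0.00241) for Col4a1.

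**Figure D2:**
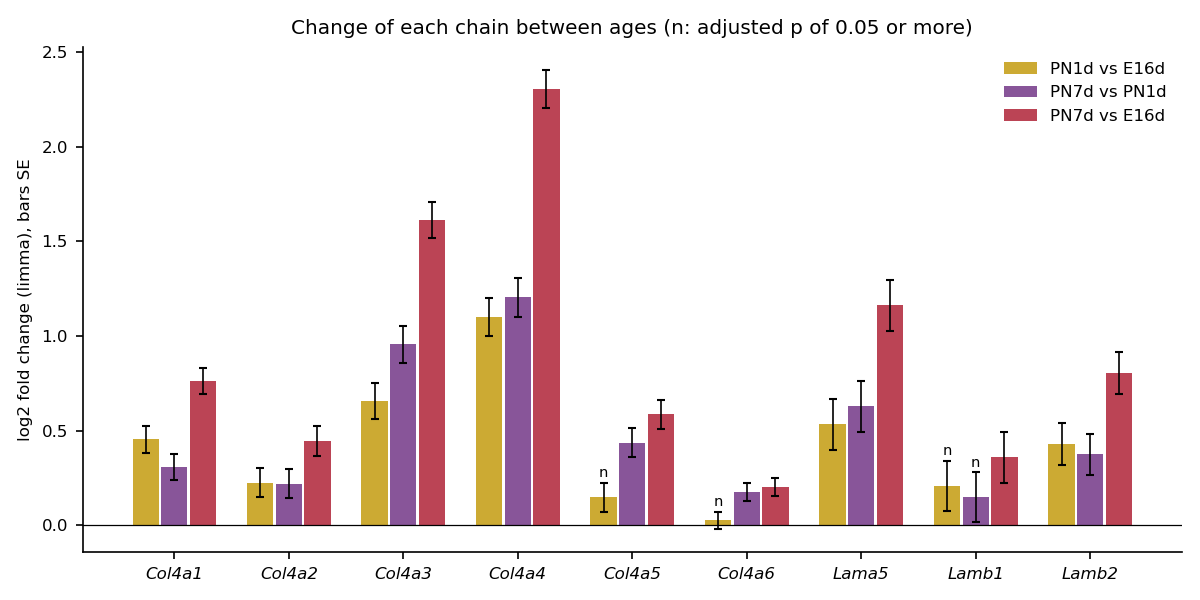
Log2 fold change (vertical axis) of the 9 chains tested in the 3 comparisons between ages, with bars for the limma estimate, error bars for its SE and the letter n over bars whose adjusted p was 0.05 or more. All bars point up. The span from E16d to PN7d reached 2.30 for Col4a4, 1.61 for Col4a3 and 1.16 for Lama5, against 0.21 for Col4a6.

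Among the laminin chains, Lama5 rose the most. Lama5 encodes the α5 chain of the mature glomerular and tubular basement membranes (chr2:180176373-180225904). Its probe read 7.61, 7.78, 7.47, 7.64 and 7.50 at E16d, 7.79, 8.24, 8.22, 8.16 and 8.28 at PN1d, and 8.48, 8.80, 9.02, 9.16 and 8.36 at PN7d. The ages did not overlap, but array 1 of PN1d lay close to the E16d arrays, and the PN7d arrays were spread widely, with arrays 1 and 5 just above the PN1d values. On the log2 scale the increase was 0.53 (SE 0.13, limma adjusted p = 0.00374) from E16d to PN1d, 0.63 (adjusted p = 0.00127) from PN1d to PN7d and 1.16 (adjusted p = 1.13e-06) over the span, a 2.24-fold difference that 2.91% of all genes exceeded.

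Lama1 encodes the α1 chain, the fetal partner in this exchange (chr17:67697127-67822645). Its probe read 6.06, 6.07, 6.13, 6.05 and 6.42 at E16d, 5.996, 6.10, 6.23, 6.16 and 6.06 at PN1d, and 6.05, 6.06, 6.02, 6.24 and 6.05 at PN7d. It was above the median of all values on 1 of 5 arrays at each age, the ages overlapped, and the highest array (6.42) was 1 of E16d. In the fit without a filter its log2 fold change over the span was -0.06 (SE 0.069, limma adjusted p = 0.549). These arrays therefore give no level of Lama1 from which a fall could be read.

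Lamb2 encodes the β2 chain, which is prominent in the mature glomerulus (chr9:108479847-108490530). Its probe read 7.54, 7.57, 7.43, 7.31 and 7.25 at E16d, 7.88, 7.81, 7.85, 7.72 and 7.99 at PN1d, and 8.24, 8.52, 8.16, 8.42 and 7.79 at PN7d. The E16d arrays lay below all PN1d arrays, whereas array 5 of PN7d fell among the PN1d values. The log2 fold change was 0.43 (SE 0.11, limma adjusted p = 0.00408) from E16d to PN1d, 0.37 (adjusted p = 0.0108) from PN1d to PN7d and 0.81 (adjusted p = 7.06e-06) over the span, a 1.75-fold difference.

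Lamb1 encodes the β1 chain, the fetal counterpart of β2 that also persists in mesangium and other basement membranes (chr12:31265146-31329644). Its probe read 8.36, 8.53, 8.75, 8.75 and 8.74 at E16d, 8.53, 8.83, 9.02, 8.95 and 8.84 at PN1d, and 8.63, 8.67, 9.26, 9.09 and 9.28 at PN7d. All 3 ages overlapped, and at PN7d arrays 1 and 2 were low and arrays 3, 4 and 5 high. The log2 fold change was 0.21 (SE 0.13, limma adjusted p = 0.211) from E16d to PN1d and 0.15 (adjusted p = 0.383) from PN1d to PN7d. Over the span it was 0.36 (SE 0.13, adjusted p = 0.0252), a call that was lost without array 1 or 2 of E16d or array 3, 4 or 5 of PN7d (0.29 to 0.33). It was also lost with the adipocyte covariate (0.27, SE 0.30, limma adjusted p = 0.507).

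The bases before the starts of Lamb2 (chr9:108479612-108479846, plus strand) and Lamb1 (chr12:31265093-31265145, plus strand, the part outside other annotated genes) are shown as those of the β chains that exchange in the glomerulus. As above, capitals mark a CCAAT box, present in the Lamb1 stretch only.
Lamb2: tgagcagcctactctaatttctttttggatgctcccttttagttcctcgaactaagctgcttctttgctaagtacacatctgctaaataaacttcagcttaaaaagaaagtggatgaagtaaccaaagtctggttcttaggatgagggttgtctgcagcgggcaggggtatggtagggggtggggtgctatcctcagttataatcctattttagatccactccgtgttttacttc
Lamb1: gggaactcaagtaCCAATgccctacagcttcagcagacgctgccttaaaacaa

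The exchange of chains was also read within each array, as the log2 difference between 2 probes, with its mean at E16d set to 0. These differences are given as descriptions with no test, and their starting offset has no meaning. Col4a4 minus Col4a2 moved by 0.87 ± 0.21 at PN1d and by 1.86 ± 0.25 at PN7d (SD, n = 5), and Col4a3 minus Col4a1 by 0.20 ± 0.13 and 0.85 ± 0.20. Both moved toward the mature-type chain, and all 5 PN7d arrays lay above all E16d arrays. With the mean of the Col4a4 probes, Col4a4 minus Col4a2 moved by 0.48 and 1.29, and after normexp correction Col4a3 minus Col4a1 moved by 0.61 and 1.53. Lamb2 minus Lamb1 moved by 0.22 ± 0.24 and 0.45 ± 0.54, and at PN7d it ran from -0.29 to 1.06. Its PN7d mean change was 0.29 to 0.63 on leaving out each array. The spread of the arrays was too wide to decide if the β chains shifted. Lama5 minus Lama1 moved by 0.57 ± 0.16 and 1.23 ± 0.30, which here repeats the rise of Lama5 over a Lama1 probe at the floor.

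The collagen chains did not all shift toward the mature type. Col4a5 minus Col4a1 moved by -0.31 ± 0.20 at PN1d and -0.18 ± 0.18 at PN7d, so the α5 chain did not gain on α1. With the adipocyte signal as a covariate the latter value was 0.17. Within the pairs that share a molecule, Col4a2 minus Col4a1 moved by -0.23 ± 0.17 and -0.32 ± 0.13, and Col4a4 minus Col4a3 by 0.44 ± 0.19 and 0.69 ± 0.21. The latter was 0.12 at PN7d with the mean of the Col4a4 probes and 0.19 after background correction, so the unequal change of α3 and α4 rested on the probe and the scale. Col4a6 minus Col4a5 moved by -0.12 ± 0.057 and -0.38 ± 0.17. The Col4a6 probe lay near the floor, where changes are understated, so this difference in part repeats the rise of Col4a5.

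**Figure D3:**
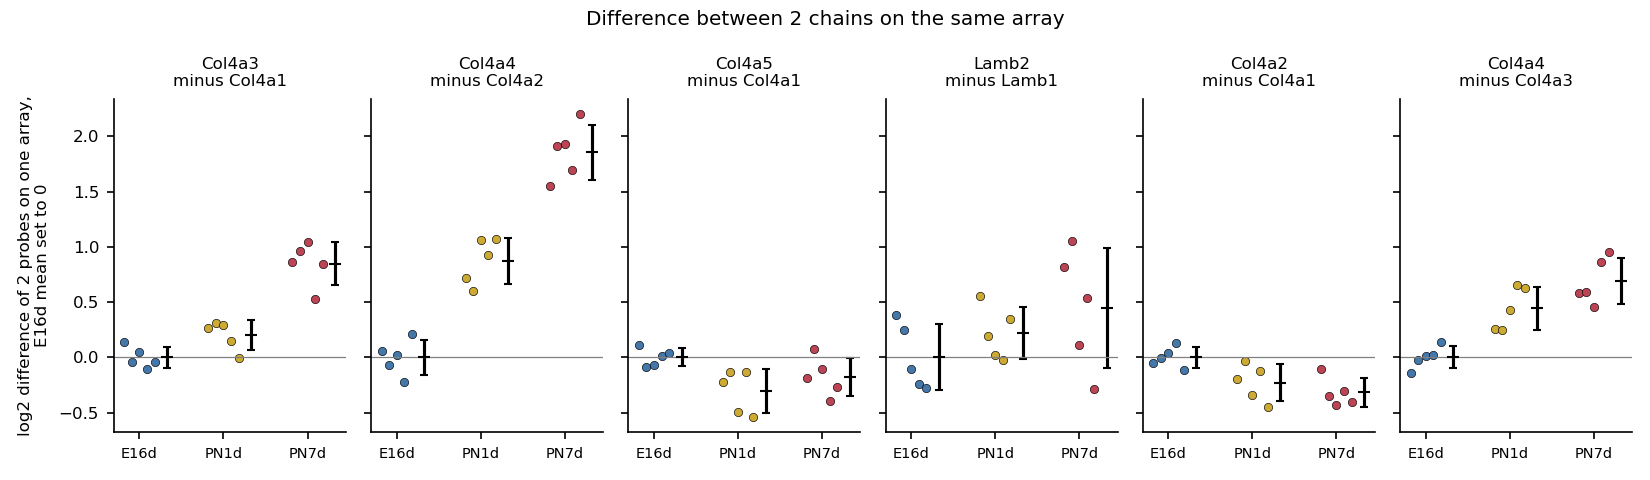
Log2 difference between the probes of 2 chains on the same array (vertical axis, E16d mean set to 0) by age, with 1 point per array and the mean ± SD of 5 arrays. Col4a4 minus Col4a2 rose to 1.86 and Col4a3 minus Col4a1 to 0.85 at PN7d, while the PN7d points of Lamb2 minus Lamb1 span -0.29 to 1.06 and the PN1d and PN7d points of Col4a5 minus Col4a1 lie at or below 0.07.

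The genes whose profiles over the 15 arrays, each centred on its own mean, came closest to each chain were found by the root mean square difference. They were Slc7a9 (0.144 on the log2 scale) and Slc13a3 (0.159), transporters of the proximal tubule, for Col4a4, and Cxcl16 (0.150) and Tinag (0.154) for Col4a3. Tgfbr2 (0.0700) and Ceacam1 (0.0742) were closest to Col4a1, and Erlin2 (0.0917) and Rftn1 (0.0941) to Col4a2. For Col4a5 they were Map3k5 (0.0833) and Nr1d1 (0.0884), and for Col4a6 Rnh1 (0.0562) and Capn13 (0.0575). Tmem63a (0.130) and Vill (0.133) were closest to Lama5, Fastk (0.106) and Serhl (0.114) to Lamb2, and Tanc1 (0.120) and Kif1b (0.126) to Lamb1. For none of the 9 chains was another of the chains among these nearest genes. By rank the closest case was Col4a4, for which Col4a3 ranked 46 (0.325), while for Col4a1 its partner Col4a2 ranked 467 (0.179). By the difference itself, the closest chains were Col4a2 and Col4a6 (0.160), with Col4a6 at rank 557 for Col4a2.

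Of the other laminin chains, 6 of 7 had a probe and 5 were tested, of which 3 rose from E16d to PN7d and 0 fell. Over that span, 32.3% of all genes rose and 32.2% fell. Lamc1, the γ1 chain that both the fetal and the mature laminins of the glomerulus contain, read 10.70, 10.88, 10.93, 10.94 and 10.84 at E16d, 10.48, 10.94, 10.86, 10.81 and 10.84 at PN1d, and 10.61, 10.81, 10.84, 10.74 and 10.56 at PN7d. All 3 ages overlapped, and the log2 fold change over the span was -0.14 (SE 0.082, limma adjusted p = 0.135), which turned to 0.06 under the adipocyte covariate. Lamb3, the β3 chain of epithelial laminin, rose from 6.16 ± 0.11 to 6.86 ± 0.13 (SD, n = 5), by 0.70 (adjusted p = 8.82e-08). Its E16d mean was under the floor, with 1 of 5 arrays above it, so this change starts from a group at background. Lama2, the α2 chain known from muscle and mesangium, rose by 0.32 (adjusted p = 0.000111), and its increase from E16d to PN1d was 0.24 (adjusted p = 0.00242). Lama3, the α3 chain, rose by 0.21 (adjusted p = 0.00464) on its brighter probe, while its other probe changed by -0.01, and the call was lost under the adipocyte covariate (0.30, adjusted p = 0.0763). Lama4, the α4 chain of vessels, changed by 0.05 (adjusted p = 0.665), and Lamc3, the γ3 chain, lay under the floor with means of 6.17, 6.14 and 6.08.

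Other basement membrane components mostly rose, with 10 of the 14 tested higher and 1 lower over the span, and a median change of 0.35. Among all genes, 32.3% were higher and 32.2% lower. Tinag, tubulointerstitial nephritis antigen of tubular basement membranes, rose by 1.66 (SE 0.086, limma adjusted p = 8.01e-11), and Col15a1, a collagen next to basement membranes, by 1.10 (adjusted p = 1.45e-09). Nid1 (nidogen, which links laminin to collagen IV) rose by 0.75, Hspg2 (perlecan) by 0.59 and Agrn (agrin) by 0.38. Ltbp1, which binds latent TGF-β, fell by 0.73 (adjusted p = 3.97e-05), a call that was lost under the adipocyte covariate (-0.52, adjusted p = 0.135), and with the mean of its probes the change was -0.37 (adjusted p = 6.81e-05).

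The enzymes and chaperones of collagen were mixed. Of 15 tested, 3 rose, 6 fell and 6 did not pass the test over the span, where 32.3% of all genes rose and 32.2% fell, and their median change was -0.13. Those that fell included Lox (lysyl oxidase, a crosslinker, by 0.67), P4ha1 (a subunit of prolyl 4-hydroxylase, by 0.50) and Serpinh1 (the collagen chaperone Hsp47, by 0.49). P3h2, a prolyl 3-hydroxylase, rose by 1.25 (SE 0.10, limma adjusted p = 1.29e-08), and Loxl1, a relative of lysyl oxidase, by 1.02 (adjusted p = 1.02e-08).

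Of the receptors of laminin and collagen IV, 7 of 9 tested rose and 0 fell over the span, with a median change of 0.37. The shares of all genes that rose and fell were 32.3% and 32.2%. Itgb4, integrin β4, rose by 1.02 (SE 0.070, limma adjusted p = 2.07e-09) and its partner Itga6 by 0.80 (adjusted p = 6.07e-05). The call of Itga6 was lost under the adipocyte covariate (0.60, adjusted p = 0.133). Dag1 (dystroglycan) and Ddr1 (a collagen receptor kinase) each rose by 0.55. Itga3, the α chain of the main podocyte laminin receptor, rose by 0.27 (adjusted p = 0.0139), and its partner Itgb1 changed by 0.07 (adjusted p = 0.234).

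**Figure D4:**
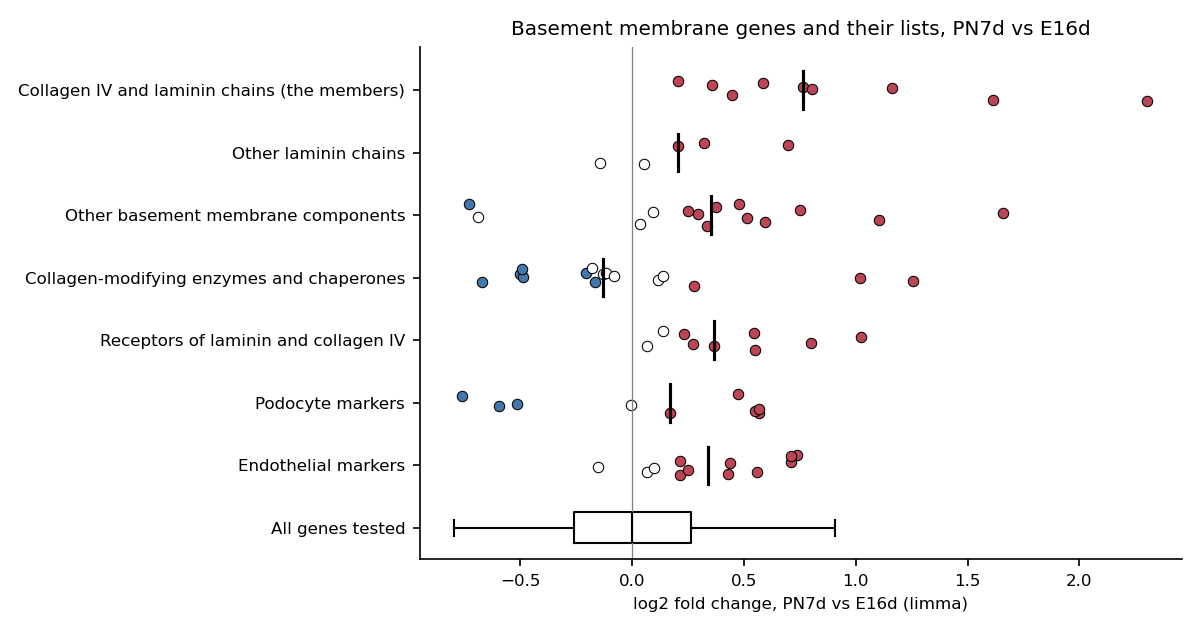
Log2 fold change from E16d to PN7d (horizontal axis) of each gene in 7 lists, with red points for genes called higher, blue for lower and white for neither, a black bar at each list's median, and vertical jitter only to separate points. The box of all 9531 genes tested shows quartiles with whiskers to the 5th and 95th percentiles. The median is 0.76 for the collagen IV and laminin chains and -0.13 for the collagen-modifying enzymes.

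Podocyte markers moved in both directions over the span, whereas the endothelial and proximal tubule markers that were called all rose. For comparison, 32.3% of all genes rose over the span and 32.2% fell. Of 9 podocyte markers tested, 5 rose over the span, among them Podxl by 0.57, Actn4 by 0.57 and Nphs1 by 0.47, and 3 fell, Foxc2 by 0.76, Wt1 by 0.59 and Cdkn1c by 0.52. The summed intensity of the 9 was 17580 to 19910 at E16d, 15150 to 17580 at PN1d and 15140 to 16710 at PN7d, of which Cdkn1c alone gave a mean of 10462 at E16d and 7319 at PN7d. Without Cdkn1c, left out after seeing the values, the sum of the other 8 was 7432 to 8619 at E16d, 7555 to 8787 at PN1d and 7742 to 9092 at PN7d, with overlapping ages. Of 12 endothelial markers tested, 9 rose and 0 fell, and their sum was 9956 to 10510 at E16d and 12210 to 13430 at PN7d. Of 7 proximal tubule markers tested, 7 rose, Slc5a2 among them from under the floor. Their sum was 6170 to 7876 at E16d and 31970 to 39180 at PN7d. The part of any of these cell types in the rise of the chains was not tested.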

How the data were processed

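Kidney RNA was labelled with biotin and hybridized to Illumina MouseRef-8 arrays, which the authors scanned and quantile-normalized. The deposited table holds log2 intensities of 24613 probes on 15 arrays. Raw signals and detection p-values (30 columns) carried sample numbers that could not be tied to an age and were not used, so no background correction from raw signals and no detection filter was applied. Age and replicate came from the labels.

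Probes with 1 symbol (20984) whose mean exceeded the median of all values (6.22) in at least 1 age were kept, and the brightest probe stood for its gene (9531 genes). limma 3.58.1 (R 4.3.3) was fitted to the 3 ages over all 15 arrays, with Benjamini-Hochberg adjustment over all genes tested. The number of arrays limits the precision. Simulated data were built on PN7d against E16d (9531 genes), with independent normal noise and few genes changed, by the full fold at any brightness. There 95.5% of genes changed by 1.5-fold and 98.5% of those changed by 2-fold were called, with 5.31% of calls false. These rates do not cover dim probes, whose changes are understated, or data in which many genes change. Promoter windows were RefSeq's (GRCm38.p6). Python 3.11.15 and matplotlib 3.10.9 were used for sequences and figures.

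The members, the gene lists and the tests were chosen with earlier results of these data known. Named were all members, all other laminin chains measured, the 2 largest increases and decreases past the test in each other list, and the 2 genes of nearest profile. Nid1, Hspg2, Agrn, Serpinh1, Dag1, Ddr1, Itga3, Itgb1, Nphs1 and Cdkn1c were added after their values were seen. Alternatives covered the filter, probes, variance model, arrays in the fit, normalization, normexp background correction (offset 16) of the unlogged values, the t-test of the methods, an adipocyte covariate (the averaged intensities of Adipoq, Cidea, Cox8b and Ucp1), the replicate number and leaving out each array.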

Additional observations from a re-analysis of the deposited data

Results flagged for a closer look

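Within each age, an array was singled out where its gap to the nearest other array was too large a share of the range of the 5 arrays (Dixon's criterion). This was examined in 156 groups of 5 arrays, those of the chains and of the genes named by rule, and chance alone singles out about 1 group in 20. Among the chains, Lama5 in array 1 of PN1d was low, at 7.79 on the log2 scale with the nearest array at 8.16. Without that array the change of Lama5 from E16d to PN1d was 0.62 in place of 0.53. Lama1 was high in array 5 of E16d (6.42, nearest 6.13) and in array 4 of PN7d (6.24, nearest 6.06), both within the range of the dimmest signals.

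Among other laminin chains, Lama3 was high in array 3 of PN7d (6.99, nearest 6.81) and Lamc1 low in array 1 of PN1d (10.48, nearest 10.81). Among the remaining named genes, Tinag was low in array 4 of PN7d (10.4, nearest 10.92), Loxl1 low in array 1 of PN1d (10.25, nearest 10.5) and Wt1 low in array 3 of PN1d (11.12, nearest 11.24). Eng was low in array 5 of E16d (7.66, nearest 7.95), Scnn1a low in array 4 of PN7d (7.65, nearest 7.95) and Umod high in array 5 of PN1d (9.74, nearest 9.43). Array 1 of PN1d was singled out for 3 genes, Lama5, Lamc1 and Loxl1, and was low in each.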

How the results depend on the processing

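The count of chains called over the 10 alternatives other than leaving out an array ran from 5 to 7 for PN1d against E16d and from 6 to 9 for PN7d against E16d, the 6 being under the adipocyte covariate, which lost Col4a2, Col4a6 and Lamb1. With the adipocyte covariate, 3 chains were called for PN7d against PN1d in place of 8 (Col4a3, Col4a4 and Col4a5), and 3640 and 1591 genes in all were called for PN7d against E16d and against PN1d. With the filter at the upper quartile these gene counts were 3967 and 2823, with fewer genes tested. The direction turned under the covariate for Lamc1 (0.065 over the span and 0.14 from PN1d), Col4a2 from PN1d to PN7d (-0.027) and Acta1 over the span (-0.53), and for Col4a6 from PN1d to PN7d on its other probe (-0.0067). The Adipoq, Cidea, Cox8b and Ucp1 probes behind the covariate lay under the floor on all E16d and PN1d arrays. The covariate therefore overlaps with age at PN7d. Among chains that lost the call from PN1d to PN7d, Lama5 (0.84), Lamb2 (0.65) and Col4a6 (0.20) had larger estimates under it. Col4a1 (0.26) and Col4a2 (-0.027) had smaller ones. A lost call thus does not tell fat from age, and the causes were not tested.

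Leaving out each array gave 5 to 6, 8 to 9 and 7 to 8 chains called. It turned the direction of small changes: Lama3 from E16d to PN1d (range -0.0022 to 0.057), Lama4 from E16d to PN1d (-0.085 to 0.025, and 0.025 or 0.020 without array 1 or 2 of PN1d) and over the span (-0.034 to 0.086), Lama4 from PN1d to PN7d (-0.0030 to 0.14) and Lamc1 from E16d to PN1d (-0.11 to 0.0045). The t-test of the methods lost Col4a2 from E16d to PN1d (adjusted p = 0.0629, per-gene t-test with Benjamini-Hochberg adjustment across all genes fitted), Lamb2 from PN1d to PN7d (0.0598), and Lamb1 over the span (0.0849). With the replicate number as a block, 7, 9 and 8 chains were called. The block added Lamb1 from E16d to PN1d (limma adjusted p = 0.0264) and a fall of Lamc1 over the span (-0.14, adjusted p = 0.0431). After each gene's mean at its age was subtracted, same-numbered arrays of different ages correlated at -0.227 to 0.21. For PN7d against E16d, 3 of 5 arrays had their best match in the same number. Only 1 did for PN1d against E16d and for PN7d against PN1d. The numbers were not taken to pair the samples, but these values do not decide if they do. Chain pairs and list counts under these alternatives were added after seeing the data.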

Other observations

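Other lists of cell markers were measured on the same arrays, and their values are given without explanation. From E16d to PN7d, 32.3% of all genes tested rose and 32.2% fell. Of 12 stromal and fibroblast markers tested, 5 rose and 2 fell from E16d to PN7d, with a summed intensity of 9922 to 12740 at E16d and 12500 to 14900 at PN7d. Of 6 nephron progenitor markers, 1 rose and 3 fell, and their sum was 2169 to 2706 at E16d, 1753 to 2066 at PN1d and 1059 to 1411 at PN7d. Of 7 proximal tubule markers, 7 rose. The Slc5a2 probe used read 5.83 to 6.06 at E16d and PN1d and passed the filter through PN7d only, which favoured a rise. The other Slc5a2 probe rose by 1.42 over the span. Of 7 markers of collecting duct and ureteric bud, 3 rose and 2 fell, of 5 muscle markers 3 rose and 0 fell, and of 4 kidney markers 2 rose and 2 fell. Of 8 adipocyte markers on the array, 5 were tested and 5 rose. Ucp1, Cidea, Cox8b and Adipoq passed the filter through PN7d only, so the filter itself favoured a rise. Plin1, Fabp4 and Retn, which did not pass it, changed by 0.19, 0.005 and 0.002 over the span.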
